A study of Mus musculus with 14 samples.

Results

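Pklr and 3 genes next to it on mouse chromosome 3, Hcn3, Clk2 and Scamp3, were described across the liver and kidney of transgenic mice on a normal or a high salt diet. The 4 genes were taken by symbol from the gene count tables, which list 19660 genes in liver, 20203 in kidney and 22263 in either, and all 4 appear in both. They were chosen by the measured difference of Pklr and Hcn3 between the diets in liver, so the liver diet values of these genes are a description and carry no test. The questions were whether Hcn3 followed Pklr from library to library, and whether the next genes along the chromosome did so.

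Pyruvate kinase makes pyruvate and ATP from phosphoenolpyruvate in the last step of glycolysis. Pklr encodes the form used in liver and red blood cells, and it has an upstream promoter used in erythroid cells and a downstream promoter used in hepatocytes and, at a lower level, in kidney. The downstream promoter is known to respond to dietary carbohydrate through ChREBP (gene Mlxipl) and its partner Mlx. Hcn3 encodes a pore subunit of the hyperpolarization-activated cyclic nucleotide-gated channels, which are studied mainly in neurons and heart. Clk2 encodes a kinase that phosphorylates SR splicing factors, and Scamp3 a membrane protein of endosomal and secretory traffic.

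All mice were adult males of 12 weeks with the transgenic genotype Hap -6A, a haplotype of the human angiotensinogen gene, and no group without the transgene was used here. Liver of the normal diet group (4 libraries, numbered 1 to 4 by their titles) was compared with liver of the high salt group (4 libraries). Columns of the high salt liver libraries are numbered 5 to 8 and their titles otherwise, so these libraries go by their columns, HS5 to HS8. Kidney had 3 libraries of each diet, numbered 1 to 3. The labels give neither the salt content nor the length of the diet. They also do not say that each library came from a separate animal, so p-values measure the spread between these libraries only.

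Liver libraries held 37267778 to 51487382 gene counts and kidney libraries 16046094 to 22004927. Mitochondrial transcripts took 2.30% and 2.06% of the counts in normal diet liver libraries 1 and 2, against 11.3% to 29.6% in the other 6 liver libraries. HS5 and HS6 were much alike, with a chi-square per gene of 1.59, where the 11 remaining liver pairs within a diet gave 9.83 to 62.8. Whether they came from 1 animal is not given in the labels. If they did, high salt liver means and SDs printed with n = 4 rest on at most 3 animals, and with the pair summed the log2 fold changes of high salt over normal diet were 2.12 for Pklr and 3.17 for Hcn3. Kidney normal diet libraries 2 and 3 were the most alike kidney pair, at 4.19 against 11.3 to 48.2. Values without these libraries, or with HS5 and HS6 summed, are given where they matter. The tissue labels held: the summed level of 6 hepatocyte markers was 54271 to 107949 counts per 1000000 (CPM) in liver and 843 to 1633 CPM in kidney. The sum of 6 kidney tubule markers was at most 8.81 CPM in liver and 3372 to 5369 CPM in kidney.

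The locus is given in GRCm38 coordinates of GENCODE M21. Pklr runs along the plus strand from 89136142 to 89146784 and Hcn3 along the minus strand from 89146074 to 89160196. The pair lies tail to tail, and the 3′ ends overlap by 711 bases (89146074 to 89146784), which are exonic in both genes and hold 0 coding bases of either. The overlap makes up 21.97% of the 3236 exonic bases of Pklr and 17.1% of the 4154 of Hcn3. It depends on the transcript models: it is 521 bases with the transcript Pklr-201, and 41 bases with the gene ends that RefSeq gives for GRCm38. The next genes do not overlap them. Clk2 (89164795 to 89176921, plus strand) begins 4598 bases beyond the start of Hcn3, and Scamp3 (89177473 to 89182765, plus strand) begins 551 bases after the end of Clk2. The sources used here do not state whether the library kit or the counting kept the strand, and without strand reads from the overlap cannot be assigned to Pklr or to Hcn3 by direction.

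The promoters of Pklr are shown because the gene has separate starts for red cells and for liver. Each window is RefSeq sequence of GRCm38.p6, plus strand, from 250 bases before to 50 bases after an annotated start. RefSeq windows were matched for 2 of the 4 genes, Pklr with 2 windows and Clk2 with 1. Capitals mark the motif matches.
Pklr upstream window, chr3:89135892-89136191: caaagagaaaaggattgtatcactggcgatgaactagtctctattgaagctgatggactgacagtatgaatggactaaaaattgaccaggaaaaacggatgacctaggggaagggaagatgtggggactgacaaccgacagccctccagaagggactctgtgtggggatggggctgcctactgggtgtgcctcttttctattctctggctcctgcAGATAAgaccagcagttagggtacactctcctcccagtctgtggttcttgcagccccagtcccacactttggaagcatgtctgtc
Pklr downstream window, chr3:89136373-89136672: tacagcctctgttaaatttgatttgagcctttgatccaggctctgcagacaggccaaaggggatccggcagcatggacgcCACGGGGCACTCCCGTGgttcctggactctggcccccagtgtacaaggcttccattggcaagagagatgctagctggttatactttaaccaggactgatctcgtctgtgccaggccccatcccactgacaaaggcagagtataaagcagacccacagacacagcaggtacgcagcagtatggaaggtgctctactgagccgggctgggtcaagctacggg

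The downstream window holds the pair of spaced boxes of a carbohydrate response element, CACGNNNNNNNNNCGTG, from -170 to -154 relative to the start. The motif reads the same on either strand and occurs in 0.28% of 32851 mouse promoter windows of the same length. The upstream window holds the GATA motif AGATAA, bound by erythroid factors, from -35 to -30, and so do 11.2% of all windows on either strand. The Clk2 window holds the E-box CACGTG from -159 to -154, as do 7.15% of windows. No match overlaps another. A match is a run of letters and shows no binding.

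Pklr was the most abundant of the 4 genes in liver on either diet. On the normal diet it stood at 93.3, 113.9, 105 and 99.2 CPM in libraries 1 to 4. On high salt it stood at 599, 593, 289.8 and 454 CPM in HS5 to HS8. The diets did not overlap, and the lowest high salt library, HS7, was still above every normal diet library. The means were 103 ± 8.76 and 484 ± 146 CPM (SD, n = 4 each), and the fitted log2 fold change was 2.23 (standard error, SE, 0.24), or 4.71-fold. High salt libraries differed 2.07-fold among themselves, where the normal diet libraries differed 1.22-fold. In bulk tissue, fewer cells of a type and less RNA per cell cannot be told apart.

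Hcn3 was scarce in liver on the normal diet, at 2.73, 3.60, 7.71 and 5.12 CPM in libraries 1 to 4. On high salt it stood at 45.9, 48.8, 42.4 and 39.5 CPM in HS5 to HS8. Here too the diets did not overlap. The means were 4.79 ± 2.18 and 44.1 ± 4.03 CPM (SD, n = 4 each), and the log2 fold change was 3.21 (SE 0.30), or 9.24-fold. The counts behind these values were 115 to 245 on the normal diet and 2038 to 2587 on high salt. The spread lay on the other side from that of Pklr: normal diet libraries differed 2.82-fold in Hcn3 and high salt libraries 1.23-fold.

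Clk2 and Scamp3, the next genes along, overlapped between the diets. Clk2 stood at 5.23, 5.37, 8.59 and 11.1 CPM on the normal diet and at 8.24, 7.05, 9.27 and 11.6 CPM on high salt. Its log2 fold change was 0.25 (SE 0.27). That value was -0.13 without normal diet libraries 1 and 2, which held the lowest Clk2. Scamp3 stood at 21.97, 21.5, 20.03 and 24.5 CPM on the normal diet and at 21.1, 25.3, 20.3 and 22.8 CPM on high salt. Its log2 fold change was 0.02 (SE 0.14), and in 16 alternative fits it ran from -0.04 to 0.07. Pklr ran from 2.12 to 2.40 and Hcn3 from 2.79 to 3.52 in the same 16 fits. The lowest Hcn3 value, 2.79, came without normal diet libraries 1 and 2, where Pklr was at 2.25.

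**Figure D1:**
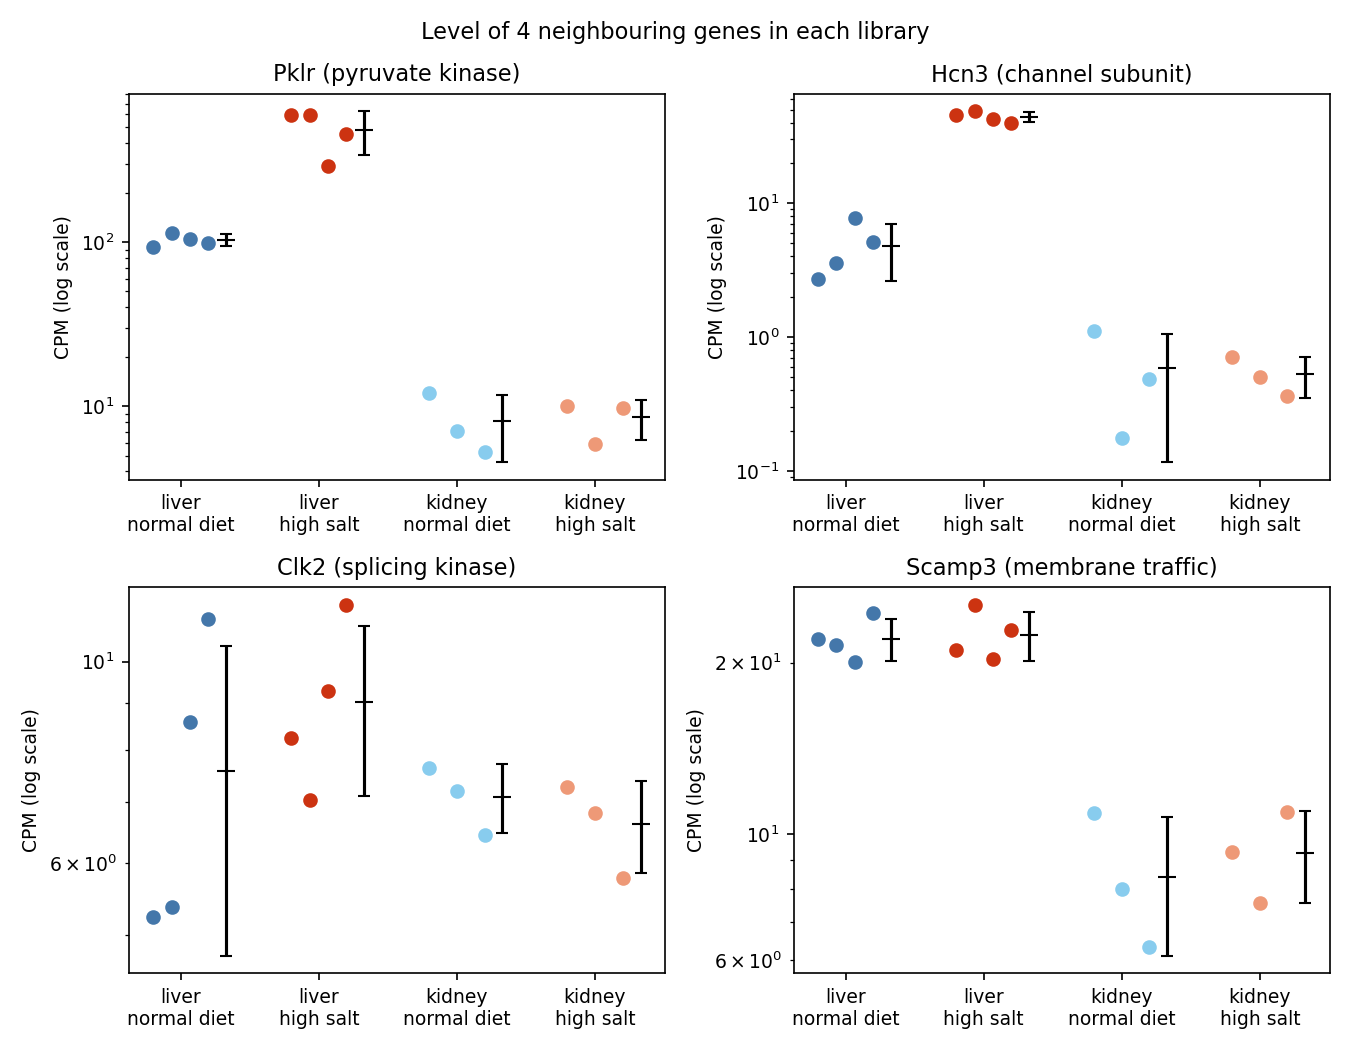
CPM (log scale) of Pklr, Hcn3, Clk2 and Scamp3 in each liver and kidney library, by diet, with the mean and SD of each group beside the points (n = 4 in liver, 3 in kidney). Pklr and Hcn3 split by diet in liver only, where Clk2 and Scamp3 overlap.

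Among all 15130 genes tested in liver, edgeR called 1.00% at an adjusted p under 0.05, and the diets did not overlap in 12.5%. They did not overlap in 2 of the 4 members, Pklr and Hcn3, as the choice of members made likely. By log2 fold change Hcn3 was the 9th from the top and Pklr the 32nd, while Clk2 was the 4338th and Scamp3 the 6940th. The median over all genes was -0.02. These ranks come from the contrast that chose the genes.

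Per kilobase of exon, which allows genes to be compared, Pklr stood at 31.8 CPM per kb in liver on the normal diet, above Scamp3 at 9.69, Clk2 at 1.43 and Hcn3 at 1.15. The last 2 did not differ beyond their spread (SD 0.534 and 0.525). On high salt Pklr stood at 149.5 and Hcn3 at 10.6 CPM per kb, the latter close to Scamp3 at 9.86 (SD 0.971 and 0.976), with Clk2 lowest at 1.70.

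In kidney Pklr stood at 12.1, 7.03 and 5.23 CPM on the normal diet and at 9.96, 5.86 and 9.77 CPM on high salt. The diets overlapped, with means of 8.12 ± 3.56 and 8.53 ± 2.31 CPM (SD, n = 3 each). Hcn3 was scarce there, with 3.33 to 21.8 counts per library. It stood at 1.10, 0.176 and 0.484 CPM on the normal diet and at 0.715, 0.504 and 0.364 CPM on high salt. Clk2 lay between 5.77 and 7.64 CPM and Scamp3 between 6.34 and 10.96 CPM, with overlapping diets in both.

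None of the 4 genes passed between the kidney diets (edgeR, adjusted p = 0.9996 each). The background was 0.00%, 0 of 15847 genes, with 318 genes (2.01%) at an unadjusted p under 0.05 and 13 genes called by DESeq2. Log2 fold changes were 0.08 for Pklr (SE 0.35), -0.16 for Hcn3 (0.65), -0.10 for Clk2 (0.21) and 0.14 for Scamp3 (0.26). An interval of the fold by a normal approximation ran from 0.653 to 1.70 for Pklr and from 0.367 to 2.17 for Hcn3. With so few libraries this approximation is narrower than a full 95% interval. The difference between the liver and kidney effects was not tested. The sign of the kidney Pklr value changed when 1 library was left out: normal diet libraries 2 and 3 left out gave -0.02 and -0.16, and high salt libraries 1 and 3 gave -0.05 and -0.03. Hcn3 changed sign without high salt library 3 (0.05) and Scamp3 without normal diet library 3 (-0.03).

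Liver and kidney on the normal diet were compared as a contrast that did not choose the genes. With both tissues scaled together, Pklr stood at 112 ± 9.62 CPM in liver (SD, n = 4) and 6.14 ± 2.84 CPM in kidney (SD, n = 3). Its log2 fold change was 4.19 (SE 0.35, edgeR adjusted p = 7.18e-06). Hcn3 was higher in liver as well, at 5.22 ± 2.36 against 0.447 ± 0.367 CPM, a log2 fold change of 3.52 (SE 0.62, edgeR adjusted p = 0.000789). Scamp3 was higher by 1.92 (SE 0.26, 24.0 against 6.35 CPM, edgeR adjusted p = 0.000161). Clk2 did not pass, at 8.26 against 5.34 CPM (log2 fold change 0.63, SE 0.32, edgeR adjusted p = 0.117). Thus 3 of the 4 genes were higher in liver, where 58.5% of the 15688 genes tested were called, 30.0% higher in liver and 28.5% lower. The other pyruvate kinase gene, Pkm, ran the opposite way and was lower in liver, at 8.96 ± 5.58 against 40.6 ± 11.7 CPM (log2 fold change -2.18, SE 0.45, edgeR adjusted p = 0.00206). The tissues were quantified in separate tables, so tissue and table cannot be told apart. The median log2 fold change over all genes was 0.07, and -0.01 with RLE scaling or -0.09 with DESeq2, and the side of the threshold of the 4 genes stayed the same in all 12 alternatives.

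Hcn3 and Pklr were next set against each other within each library, a ratio that no scaling of the library changes. On the normal diet liver libraries 1 to 4 held 2.93, 3.16, 7.35 and 5.16 Hcn3 counts per 100 Pklr counts. On high salt HS5 to HS8 held 7.67, 8.22, 14.6 and 8.71. The diets did not overlap, although the 95% exact intervals of normal diet library 3 (6.43 to 8.37) and HS5 (7.36 to 7.98) did. The means were 4.65 ± 2.06 and 9.81 ± 3.24 per 100 (SD, n = 4 each), and the high salt mean without HS7 was 8.20. The lowest normal diet ratios, 2.93 and 3.16, were those of libraries 1 and 2, which had low mitochondrial shares. Libraries 3 and 4, at 7.35 and 5.16, lay nearer to the high salt values than libraries 1 and 2 did. The part of these libraries' mitochondrial shares in the ratio was not tested. Hcn3 therefore did not keep a fixed proportion to Pklr: over the 8 liver libraries the ratio on the CPM scale with a prior count of 2 varied 4.92-fold.

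In kidney the normal diet libraries held 9.09, 2.5 and 9.26 Hcn3 counts per 100 Pklr counts and the high salt libraries 7.17, 8.60 and 3.72. Each value rests on few Hcn3 counts. The exact interval of the lowest, 2.5, ran from 0.508 to 7.48, and that of the highest, 9.26, from 4.32 to 17.7. The kidney diets overlapped, and their range took in values of both liver diets. Intervals cover counting error only, as no molecular identifiers are named in the labels and reads may be copies of 1 molecule.

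**Figure D2:**
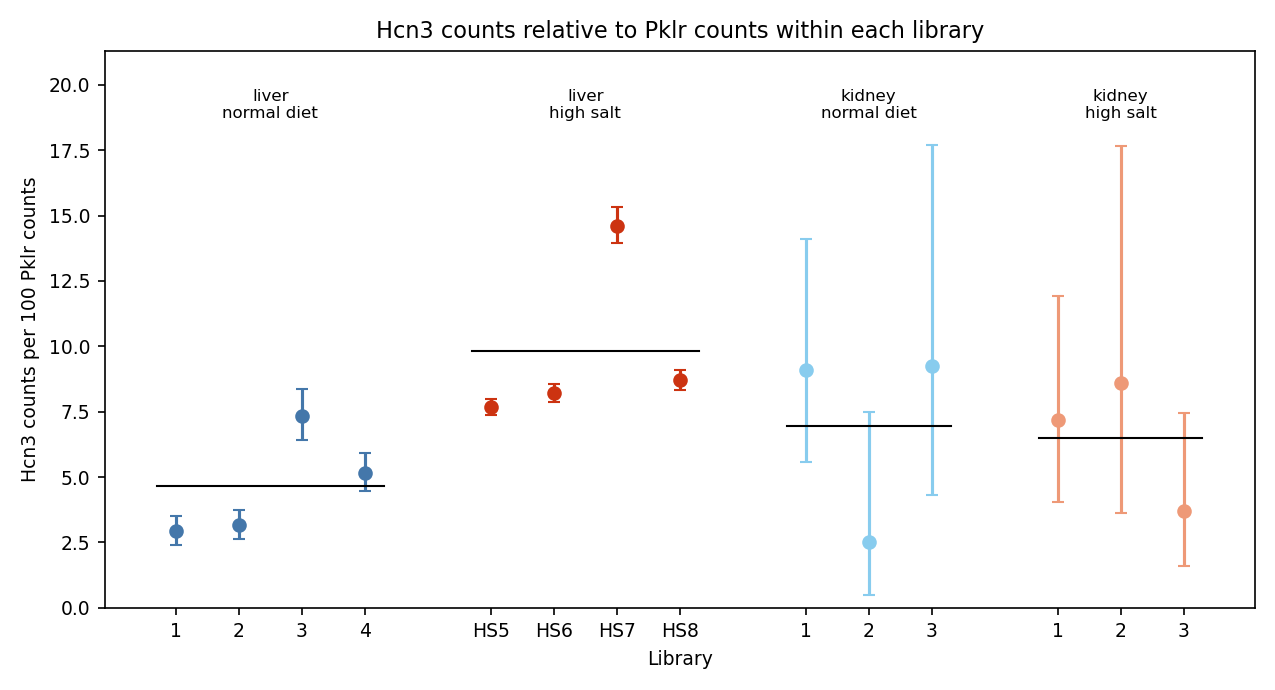
Hcn3 counts per 100 Pklr counts in each library, with 95% exact intervals that cover counting error only, by tissue and diet, and a black line at each group mean. High salt liver libraries lie from 7.67 to 14.6 and normal diet liver libraries from 2.93 to 7.35, and kidney intervals are wide.

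Within a diet the order of the libraries was only partly shared. For 4 of the 6 pairs of normal diet liver libraries, the library with more Pklr also had more Hcn3, and the same count was found among the 6 pairs of high salt libraries. HS7 had the lowest Pklr of the high salt libraries, 289.8 CPM, and a Hcn3 level of 42.4 CPM in the middle of them. Normal diet library 2 had the highest Pklr, 113.9 CPM, and the second lowest Hcn3. In kidney 2 of 3 pairs in each diet had the same order.

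**Figure D3:**
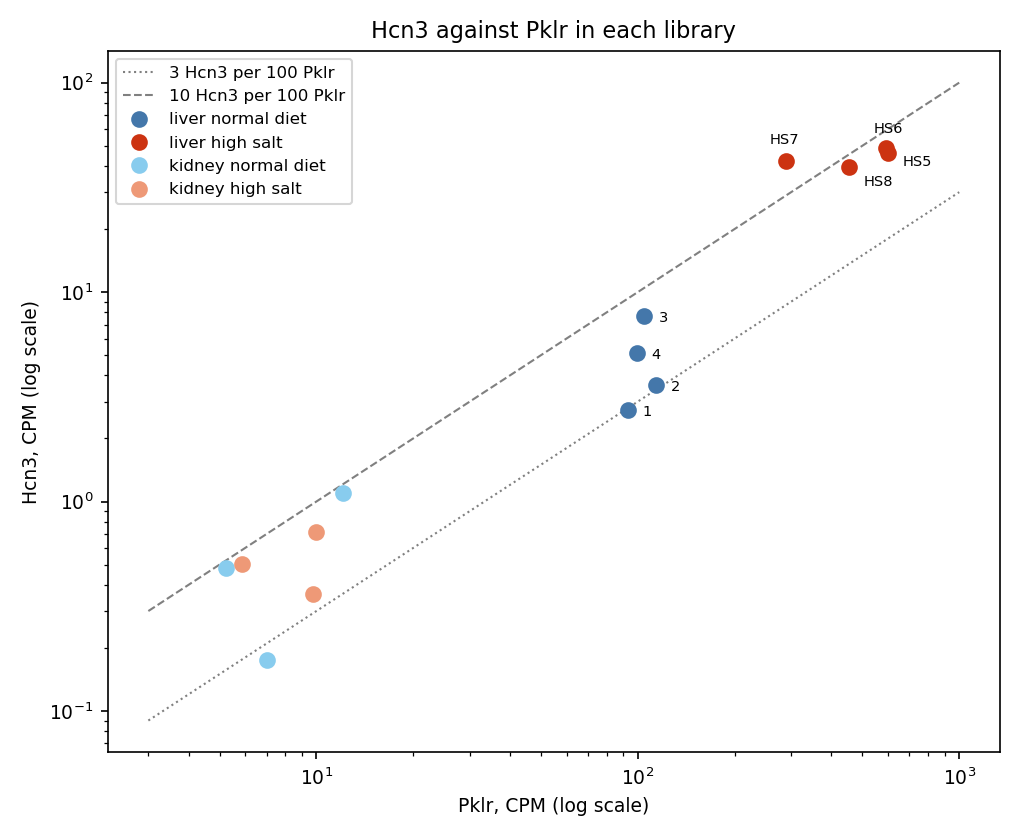
Hcn3 CPM against Pklr CPM in each library, both on log scales, with lines at 3 and 10 Hcn3 per 100 Pklr. The liver diets form separate groups of points, and within a diet the points do not line up along either line.

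Likeness to Pklr was also measured for every gene tested, as the SD over the 8 liver libraries of the log2 ratio to Pklr, where 0 is a fixed proportion. Hcn3 had an SD of 0.77 and was the 300th of 15129 genes, within the closest 1.98%. Clk2 was the 4933rd (SD 1.16) and Scamp3 the 5687th (SD 1.19). The 5 genes closest to Pklr were Acly (SD 0.22), Gm5182 (0.24), Elovl6 (0.25), Gm7049 (0.25) and Me1 (0.35). Acly makes cytosolic acetyl-CoA from citrate, Elovl6 elongates fatty acids and Me1 makes pyruvate and NADPH from malate. The 5 genes closest to Hcn3 were Cyp46a1 (SD 0.46), Crybg2 (0.46), Gm7329 (0.52), Fasn (0.57) and Peg10 (0.58), and Pklr was the 18th. Cyp46a1 is the cholesterol 24-hydroxylase and Fasn the fatty acid synthase. This measure includes the diet difference that chose the genes. With the diet means removed, the SD was 0.33 for Scamp3 (1695th of 15129), 0.53 for Hcn3 (7904th) and 0.63 for Clk2 (10298th). A gene that hardly varies gets an SD close to Pklr's own, whether or not it follows Pklr. Liver libraries of a diet differed at most 1.25-fold in Scamp3, so its rank does not show that it followed Pklr.

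The deposited counts are estimates that can split a read between genes, and the fractions show where this happened. Hcn3 had a fractional count in 8 of 8 liver and 6 of 6 kidney libraries, and Pklr in 7 of 8 and 6 of 6. Clk2 had whole counts in all 14. In the 6 kidney libraries the fractions of Pklr and Hcn3 added up to whole numbers, with a largest distance of 0.0005, the rounding of the file. In liver the larger counts are written with fewer decimals. Even with that rounding allowed for, the sum was whole in only 2 of 8 libraries, and it was within 0.1 of a whole number in 6. The largest distance was 0.39, in HS6, where rounding allows 0.055, so the liver fractions did not all add up to whole numbers. Among tail-to-tail pairs with both genes tested in liver, 386 had fractional counts of both genes in every kidney library. Of these pairs, 92 (23.8%) gave whole sums in all 6 kidney libraries, so the kidney pattern is not particular to this pair. How many reads were shared cannot be read from the totals, and their part in the Hcn3 values was not tested. Scamp3 counts were fractional in all 8 liver libraries as well, and summed to whole numbers (tolerance 0.01) with the antisense gene Gm16069, which held at most 1.26% as many counts.

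Other tail-to-tail pairs give the background for the joint difference of Pklr and Hcn3. The liver table held 1057 such pairs, of which 777 had both genes tested, with a median overlap of 1771 bases. Both genes were called in 1 pair (0.129%), which was Pklr with Hcn3, the pair chosen for it. In 15 pairs 1 gene was called, where each pair holds 2 genes and 1.00% of all liver genes were called. Called genes whose partner was not called included Pltp (log2 fold change 2.93, partner Ctsa 0.03) and Crat (1.37, partner Dolpp1 -0.20). The log2 ratio of Pklr and Hcn3 varied more over the liver libraries (SD 0.77) than that of the median pair (0.52). This SD includes the diet difference that chose the pair. With the diet means removed it was 0.53 for Pklr and Hcn3, a value not worked out for the other pairs. DESeq2 called both genes in 7 pairs, limma in 2, and the count was 4 without normal diet library 3 and 2 without normal diet library 4 or HS7.

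The window of 250 kb around Pklr held 25 further genes in the liver table, of which 21 were tested. Their median log2 fold change was 0.06, against -0.02 over all genes, with 11 above 0 and 10 below. Of these 21 genes 1 was called, against 1.00% of all genes, and the diets did not overlap in 4 (19.0%), against 12.5%. The called gene was Gm15998, which lies antisense to Efna3, a gene for an ephrin ligand. Gm15998 stood at 1.33, 1.93, 0.818 and 1.54 CPM on the normal diet and at 4.35, 4.08, 7.46 and 5.78 CPM on high salt. Its log2 fold change was 1.94 (SE 0.31, edgeR adjusted p = 0.0297). The call was lost without normal diet library 1 (adjusted p = 0.0917), HS5 (0.0832), HS6 (0.0751) or HS8 (0.102) and with HS5 and HS6 summed (0.0767), with log2 fold changes of 1.91 to 2.05. It was also lost with normal diet libraries 1 and 2 both left out (edgeR adjusted p = 0.071, log2 fold change 2.19). Efna3 had a log2 fold change of 1.49 (SE 0.42) and did not pass (edgeR adjusted p = 0.112), and its reads cannot be told from those of Gm15998 without strand.

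Genes nearer to Pklr showed smaller differences. Fdps, the farnesyl diphosphate synthase of cholesterol synthesis, starts 34.2 kb before Pklr and had a log2 fold change of 0.11 (SE 0.24, edgeR adjusted p = 0.820). Rusc1, the next gene beyond it, had -0.11 (SE 0.18). Farther out, Dap3, a protein of the mitochondrial ribosome, had a log2 fold change of -0.67 with non-overlapping diets (edgeR adjusted p = 0.0593). Values in the window ran from -0.87 (Efna1) to 1.94, so Hcn3 and Pklr were the highest of the tested genes there. In kidney 0 of 21 tested neighbours were called, 1 had non-overlapping diets (6.92% of all kidney genes did), and values ran from -0.86 to 0.47.

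**Figure D4:**
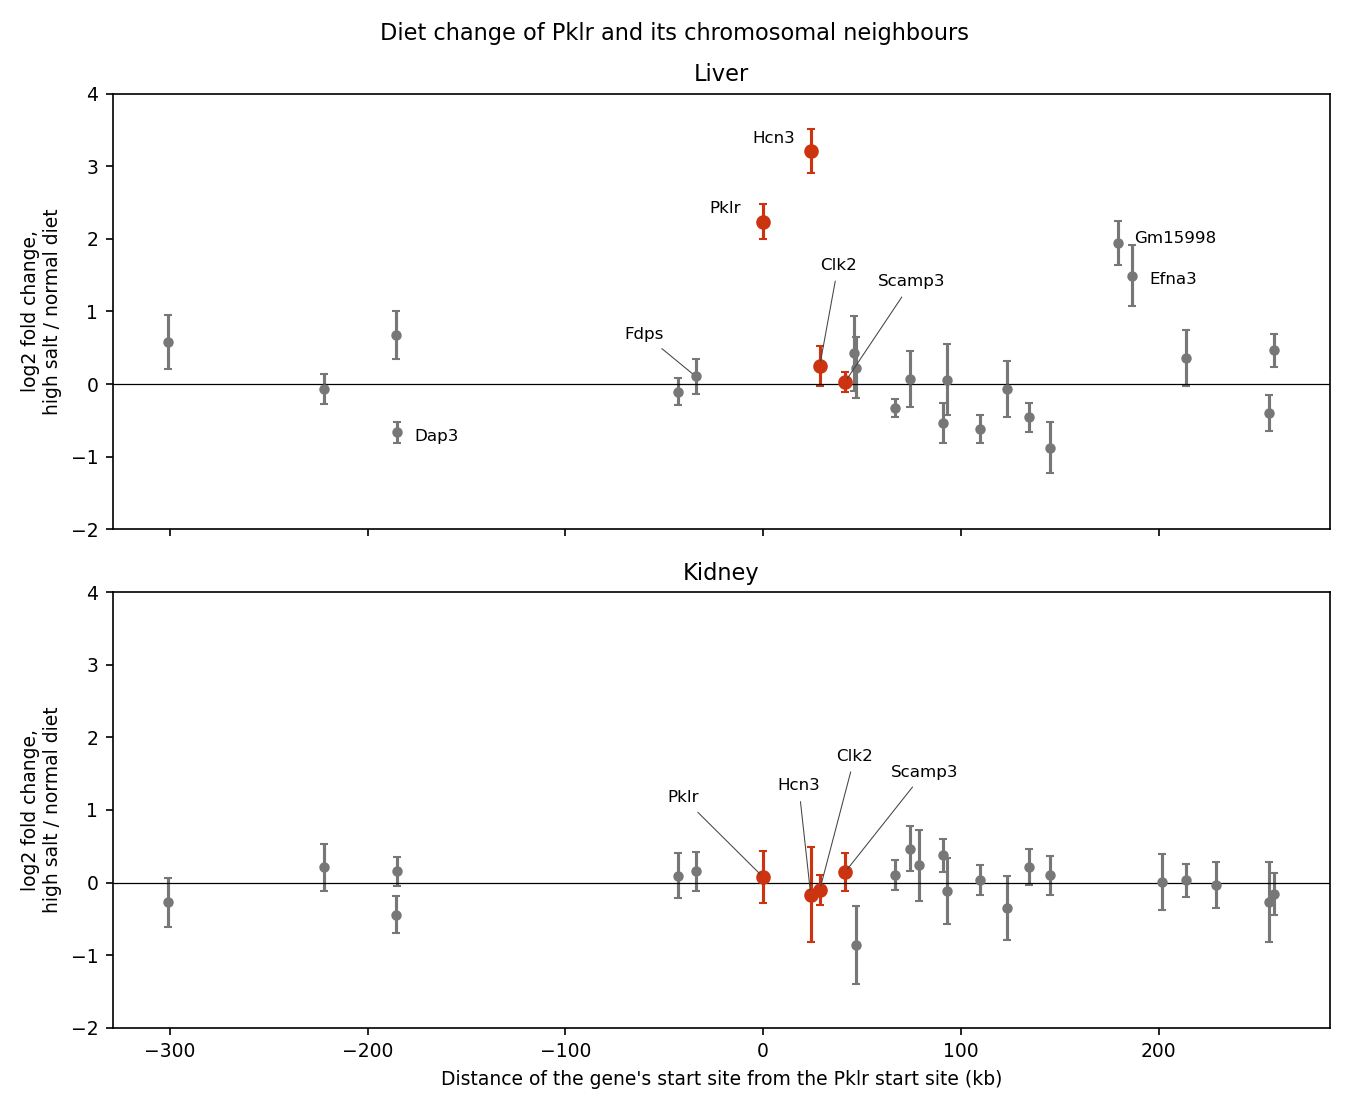
Log2 fold change, high salt over normal diet, with its standard error, for each tested gene within 250 kb of Pklr, against the distance of its start from the Pklr start in kb, in liver and in kidney. In liver Hcn3 and Pklr lie at 3.21 and 2.23, and the nearest tested genes on either side lie near 0.

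The rest of the pyruvate pathway was taken from gene lists. Of 17 other glycolysis genes tested in liver, 1 was called (1.00% of all liver genes were), and the diets did not overlap in 3, against 12.5% of all genes. The called gene was Gpi1, the glucose-6-phosphate isomerase, which rose from 68.5 ± 11.8 to 129 ± 13.9 CPM (log2 fold change 0.92, SE 0.17, edgeR adjusted p = 0.0433). The list's median was 0.32, with 11 genes above 0 and 6 below. Pkm stood at 8.23 ± 5.15 and 8.31 ± 1.05 CPM (log2 fold change 0.01, edgeR adjusted p = 0.987), so the other pyruvate kinase gene showed no difference of the size of Pklr's.

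Of 18 genes that act on pyruvate or lead to and from it, 1 was called, against 1.00% of all genes. The diets did not overlap in 6, against 12.5% of all genes. The called gene was Me1, which rose from 65.9 ± 25.2 to 319 ± 90.3 CPM (log2 fold change 2.28, SE 0.32, edgeR adjusted p = 0.0169). The median of this list was -0.12. The gluconeogenic genes Pcx and Pck1 had log2 fold changes of -0.11 and -0.23 (edgeR adjusted p = 0.810 and 0.617). The alanine transaminase gene Gpt had -0.80 with non-overlapping diets (edgeR adjusted p = 0.0761).

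Of 13 genes for factors known to act on the Pklr promoter, 1 was called, against 1.00% of all genes. The diets did not overlap in 4, against 12.5% of all genes. The called gene was Nfic, a nuclear factor I gene, which rose from 27.9 ± 5.50 to 64.8 ± 16.9 CPM (log2 fold change 1.22, SE 0.23, edgeR adjusted p = 0.0449). The median was 0.39, with 11 above 0 and 2 below. Mlxipl, which encodes ChREBP, stood at 112 ± 55.7 and 189 ± 56.6 CPM and did not pass (log2 fold change 0.75, SE 0.36, edgeR adjusted p = 0.263). Its partner Mlx had -0.94 (edgeR adjusted p = 0.132) and Hnf4a 0.03 (0.946). The calls of Gpi1, Me1 and Nfic each failed in 8, 5 and 8 of 16 alternatives, among them HS5 and HS6 summed (edgeR adjusted p = 0.174, 0.0742 and 0.176). They were also lost without HS5 (adjusted p = 0.168, 0.0733 and 0.168), without HS6 (0.182, 0.0746 and 0.182) and without normal diet library 2 (0.105, 0.0523 and 0.108). Gpi1 and Nfic were lost without normal diet library 1 (0.111 each) and without HS8 (0.102 and 0.134), and Gpi1 without HS7 (0.0565). Leaving out normal diet libraries 1 and 2 together lost the calls of Gpi1, Me1 and Nfic too (edgeR adjusted p = 0.107, 0.071 and 0.152).

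In kidney 0 genes of the 3 lists were called, with medians of 0.22, 0.05 and -0.0025 against -0.02 over all genes. Between the tissues on the normal diet, 8 of 16 glycolysis genes were higher in liver and 4 lower, where 30.0% of all genes were higher and 28.5% lower. Of 18 pyruvate fate genes 7 were higher and 8 lower, and of 13 factor genes 4 were higher and 1 lower. Mlxipl was among the higher, with a log2 fold change of 2.57 and a standard error of 0.41 (edgeR adjusted p = 0.000466), as was Hnf4a at 1.03 (edgeR adjusted p = 0.0349). Nr2f2, which encodes COUP-TFII, was lower in liver by 2.21 on the log2 scale, a value of -2.21 (edgeR adjusted p = 0.000105).

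**Figure D5:**
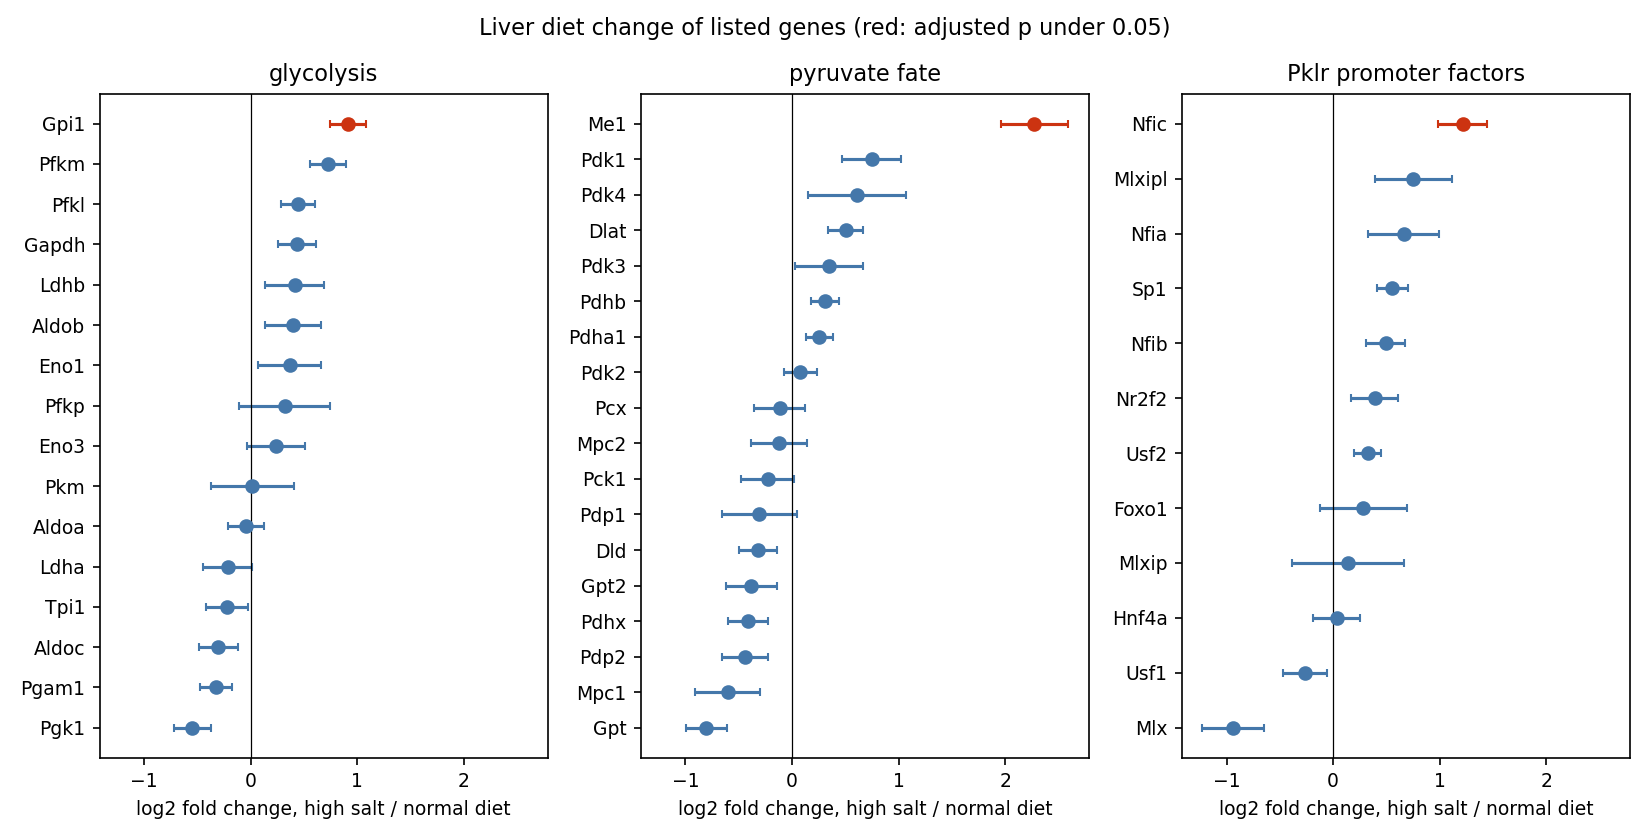
Log2 fold change, high salt over normal diet in liver, of tested genes of the glycolysis, pyruvate fate and Pklr promoter factor lists, with bars of 1 standard error. The red gene at the top of each list passed the edgeR threshold, at 0.92 (Gpi1), 2.28 (Me1) and 1.22 (Nfic).

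Relatives of the other members were also read. Of the HCN family, Hcn4 and the accessory subunit gene Kcne2 are not listed in the liver table. Hcn2 was at 0.118 CPM (normal diet) and 0.191 CPM (high salt) and too low to be tested, as was Pex5l, which encodes a protein that binds HCN channels (0.030 and 0.101 CPM). Hcn3 was thus the 1 gene of these families above the filter in liver, and it was also the 1 tested in kidney. The other CDC-like kinase genes Clk1, Clk3 and Clk4 had liver log2 fold changes of 0.10, 0.0025 and -0.0073, and 0 of 3 were called. Of Scamp1, Scamp2, Scamp4 and Scamp5, 0 of 4 were called, with Scamp1 highest at 0.49 (edgeR adjusted p = 0.135).

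Markers of other cell types that use these genes were set beside them. Erythroid genes, whose cells use the upstream Pklr promoter, summed to 725 to 1937 CPM in normal diet liver and 271 to 720 CPM in high salt liver. Of the 9 erythroid markers 4 were under 1 CPM or unlisted in liver. The part of erythroid cells in the Pklr values was not tested. The hepatocyte sum ran from 54271 to 83839 CPM on the normal diet and from 90396 to 107949 CPM on high salt, without overlap. Its part in the Pklr and Hcn3 values was not tested. Of the 6 neuronal markers 5 were under 1 CPM or unlisted in liver. Their sum, 9.18 to 17.0 CPM against 6.01 to 8.19 CPM on high salt, was nearly all Syt1, and the part of neurons in the Hcn3 values was not tested. All 6 cardiac markers were under 1 CPM or unlisted in liver, with a sum of at most 0.582 CPM.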

How the data were processed

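RNA of 8 liver and 6 kidney libraries was sequenced with a SMARTER mRNA kit from 1 µg of total RNA each, per the labels' protocols. The authors deposited expected counts per gene and normalized values, a signal on a linear scale, per the file headers. The submitters' processing notes name Partek 7.0, STAR 2.5.3a, DESeq2 and mm10, with no role for each. Strand use is not given in the sources used here. Gene starts equal those of GENCODE M21 for 99.4% of the named liver genes. No column of per-sample values (0) was left out.

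Rounded expected counts went into the quasi-likelihood test of edgeR 4.0.16 in R 4.3.3 (TMM scaling, filterByExpr), over all genes of a tissue for diet and over the genes shared by both tables for tissue, with Benjamini-Hochberg adjusted p-values under 0.05 called. CPM use TMM library sizes. Likeness used a prior count of 2. Exact binomial intervals are at 95%. Biological coefficients of variation were 0.314 (liver) and 0.30 (kidney), so the spread between libraries limits most genes more than counting does.

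The members and lists were chosen with earlier results of these data known. Named are the members, genes within 250 kb of Pklr, list members called, families and the 5 genes most like Pklr and Hcn3. Alternatives were RLE scaling, DESeq2 1.42.0, no filter, mitochondrial genes removed, HS5 and HS6 summed, normal diet liver libraries 1 and 2 left out, limma 3.58.1 on log2 deposited values with pseudocounts of 1 and 0.1, a replicate block and each library left out. Left out were the human transgene, which was not analysed here, and some listed genes, which are not reported here.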

Additional observations from a re-analysis of the deposited data

Results flagged for a closer look

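HS7 held 14.6 Hcn3 counts per 100 Pklr counts, far from the other high salt liver libraries, which held 7.67, 8.22 and 8.71. It was the 1 such library in 10 groups of 4 looked at, and chance gives about 1 in 20 groups when the 4 libraries are independent. HS5 and HS6 were much alike (chi-square per gene of 1.59), and the labels do not say whether they came from 1 animal. Only the liver groups hold 4 libraries, so the 10 groups also reuse the same libraries. The rate of 1 in 20 is therefore not exact here, and the flag was not tested with HS5 and HS6 taken as 1 value. HS7 had the lowest Pklr of the high salt libraries (289.8 CPM, against 454 to 599) and a Hcn3 level inside their range (42.4 CPM, against 39.5 to 48.8). Its exact interval of 13.9 to 15.3 does not reach the other 3 values.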

How the results depend on the processing

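The liver log2 fold changes of Pklr and Hcn3 stayed positive in all 16 alternatives. The number of liver genes called was not stable: 152 became 1094 with DESeq2, 12 with HS5 and HS6 summed and 52 without normal diet libraries 1 and 2. It ran from 12 to 765 when 1 library was left out: 39, 41, 765 and 409 without normal diet libraries 1 to 4, and 18, 12 and 32 without HS5, HS6 and HS8. Called neighbours within 250 kb were 3 with DESeq2 and 0 with HS5 and HS6 summed or without normal diet libraries 1 and 2, and ran from 0 to 3 with 1 library left out. Pairs with both genes called were 7 with DESeq2 and 2 with limma at either pseudocount, and ran from 1 to 4. In kidney DESeq2 called 13 genes, and the other 12 alternatives called 0. With 1 kidney library left out, Pklr ran from -0.16 to 0.49, Scamp3 from -0.0294 to 0.37 and Hcn3 from -0.58 to 0.052, the last in 4 of 6 fits, as Hcn3 fell under the filter in the others and with mitochondrial genes removed. The cause of these changes was not tested. Fits with a library left out also rest on fewer libraries.

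With the replicate number as a block, kidney calls stayed at 0, with Pklr at 0.12, Hcn3 at -0.03, Clk2 at -0.10 and Scamp3 at 0.16. The tissue comparison called 7738 genes under the block, with Pklr at 4.29, Hcn3 at 3.57, Clk2 at 0.34 and Scamp3 at 1.89. Kidney libraries of the same number correlated in their deviations at 0.41, 0.37 and -0.09, and 3 of 6 correlated best with their own number. Across tissues the values were -0.16, 0.15 and -0.21, with 1 of 6. The samples share only a number. No block could be fitted in liver, as HS5 to HS8 share no number with the normal diet titles. Kidney Hcn3 rests on 3.33 to 21.8 counts per library.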

Other observations

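Leaving out single high salt liver libraries, a step chosen after seeing the data, moved the likeness of Hcn3 to Pklr. Without HS7 the SD of the log2 ratio was 0.66 and Hcn3 ranked 88th of 15129 genes. Without HS6 the SD was 0.82 and the rank 596th. Acly was the closest gene to Pklr in each case.

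In kidney, the HCN family gene Hcn4 was at 0.158 CPM (normal diet) and 0.0149 CPM (high salt), and Hcn2 at 0.226 and 0.426 CPM, all too low to be tested. The 6 cardiac markers summed to 3.57 to 4.50 CPM in normal diet kidney and 0.864 to 1.64 CPM in high salt kidney, without overlap. Of single kidney genes, 6.92% had non-overlapping diets. On the normal diet 5 of the 6 markers were under 1 CPM or unlisted, and on high salt all 6 were. The difference was not tested.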
